A study of Mus musculus with 8 samples.

Results

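Metallothioneins and the genes that set how much zinc a liver cell holds were followed here as 6 genes: the metallothioneins Mt1 and Mt2, the zinc-sensing transcription factor Mtf1, the exporters Slc30a1 and Slc30a10, and the importer Slc39a14. They were taken by gene symbol, 1 locus each, from the 23699 loci with a deposited expression value. The 6 genes were chosen by their measured FPKM in these same libraries, compared between the 4 groups, so the values and tests of these 6 genes are a description of them and no independent evidence. Polyadenylated liver RNA was sequenced in 8 libraries, 2 for each of 4 groups. The groups were re-fed LMKO, re-fed control, fasted LMKO and fasted control. LMKO mice lack Med23, a subunit of the transcriptional coactivator Mediator, in the liver, and the labels give the comparison mice only as control. All mice were male, 8 weeks old and of the C57/BL6 strain. Fasted mice went 24 h without food, and re-fed mice had 24 h without food and then 24 h with it. What drives the deletion is not stated in the sources used here. The series design gives 2 per group, so each value of spread below rests on 2 livers.

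Metallothioneins are small cysteine-rich proteins that bind zinc and copper, and in rodent liver their genes are known to respond to zinc, glucocorticoids, inflammatory cytokines and food deprivation. When free zinc rises, MTF1 (metal regulatory transcription factor 1) binds metal response elements in the promoters of Mt1, Mt2 and Slc30a1. SLC30 proteins move zinc out of the cytosol, to the outside or into vesicles, and SLC39 proteins move it into the cytosol. SLC39A14 (ZIP14) also carries manganese and iron not bound to transferrin, and SLC30A10 is best known as a manganese exporter.

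Mt1 and Mt2 lie close together on chromosome 8, and in fasted liver they were far more abundant than after re-feeding in both genotypes. The promoter windows of Mt1, Mt2 and Slc30a1 are printed because these are the classical MTF1 targets among the genes described. They are RefSeq windows on GRCm38.p6, plus strand, 5′ to 3′, from 250 bases before to 50 bases after the annotated start, and capitals mark the 7-base core of the metal response element.
Mt1, chr8:94178839-94179138: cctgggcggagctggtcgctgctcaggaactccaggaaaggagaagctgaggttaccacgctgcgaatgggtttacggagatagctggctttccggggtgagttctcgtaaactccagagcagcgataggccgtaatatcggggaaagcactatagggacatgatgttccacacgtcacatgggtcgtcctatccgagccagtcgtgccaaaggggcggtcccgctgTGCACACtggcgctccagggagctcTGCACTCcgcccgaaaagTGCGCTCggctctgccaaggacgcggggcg
Mt2, chr8:94172368-94172667: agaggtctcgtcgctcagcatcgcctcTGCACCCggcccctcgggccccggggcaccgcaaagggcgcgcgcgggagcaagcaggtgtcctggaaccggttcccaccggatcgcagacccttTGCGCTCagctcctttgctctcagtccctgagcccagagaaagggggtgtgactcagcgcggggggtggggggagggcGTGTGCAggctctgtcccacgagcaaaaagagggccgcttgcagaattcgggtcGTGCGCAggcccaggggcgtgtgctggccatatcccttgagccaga
Slc30a1, chr1:191906531-191906830: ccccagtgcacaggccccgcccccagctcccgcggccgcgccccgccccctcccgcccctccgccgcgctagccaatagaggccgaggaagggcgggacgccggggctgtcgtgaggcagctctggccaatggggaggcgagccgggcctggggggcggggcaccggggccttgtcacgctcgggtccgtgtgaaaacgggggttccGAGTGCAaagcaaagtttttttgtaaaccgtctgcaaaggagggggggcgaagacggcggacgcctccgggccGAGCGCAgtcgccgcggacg
The core was searched as TGCACNC and TGCGCNC on both strands, and promoter windows were found for 5 of the 6 genes. With the annotated start counted as base 1, the Mt1 window held 3 matches, all on the plus strand, at bases -23 to -17, 3 to 9 and 21 to 27. The Mt2 window held 4 matches, at -223 to -217 and -128 to -122 on the plus strand and at -50 to -44 and 5 to 11 on the minus strand. Slc30a1 held 2 matches, both on the minus strand, at -43 to -37 and 31 to 37. Slc30a10 held 3, of which 2 overlapped on opposite strands, and the Mtf1 window held 0. Of the 32851 promoter windows in the table, 25.7% held at least 1 match, 7.11% at least 2, 1.97% at least 3 and 0.517% at least 4. Positions are relative to the annotated start, and where transcription starts in these livers was not measured. Bases outside the windows were not searched, so further elements of a promoter may lie there. A match is a description of the letters and shows neither a working site nor a cause.

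Expression was deposited as FPKM, a count of fragments divided by transcript length and by the mapped total, so levels are given per length. Levels of different genes can be set side by side only roughly, because values still shifted with transcript length between libraries, as described below. Mt1 (mm9 chr8, 96702989 to 96704227) had 17.3 and 22.6 FPKM in re-fed LMKO livers and 12.2 and 11.3 FPKM in re-fed control livers, against 635 and 802 FPKM in fasted LMKO livers and 543 and 837 FPKM in fasted control livers. Every re-fed library lay far below every fasted one, in both genotypes. Ranked by level among the 23699 loci, Mt1 stood at places 3051 and 2617 in re-fed LMKO and 3910 and 4047 in re-fed control, against places 94 and 77 in fasted LMKO and 109 and 74 in fasted control. Mean levels were 20.0 ± 3.81 FPKM in re-fed LMKO and 719 ± 118 FPKM in fasted LMKO (SD, n = 2 each), so the fasted mean was 36.0 times the re-fed mean. Among controls they were 11.7 ± 0.680 FPKM re-fed and 690 ± 208 FPKM fasted, a fasted mean 58.7 times the re-fed one.

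Mt2 (mm9 chr8, 96696518 to 96697467), whose annotated end lies 5521 bases before the start of Mt1, was near the 1 FPKM limit for testing after re-feeding. It had 2.10 and 3.07 FPKM in re-fed LMKO livers and 1.65 and 2.91 FPKM in re-fed control livers, against 344 and 511 FPKM in fasted LMKO livers and 349 and 574 FPKM in fasted control livers. The fasted and re-fed libraries were again wholly apart, and the 2 genotypes overlapped in each feeding state. The fasted mean was 165 times the re-fed mean in LMKO and 202 times in controls. Together the 2 metallothioneins held 0.00324% and 0.00443% of all FPKM in re-fed LMKO and 0.00271% and 0.00257% in re-fed control, against 0.210% and 0.280% in fasted LMKO and 0.194% and 0.311% in fasted control.

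**Figure D1:**
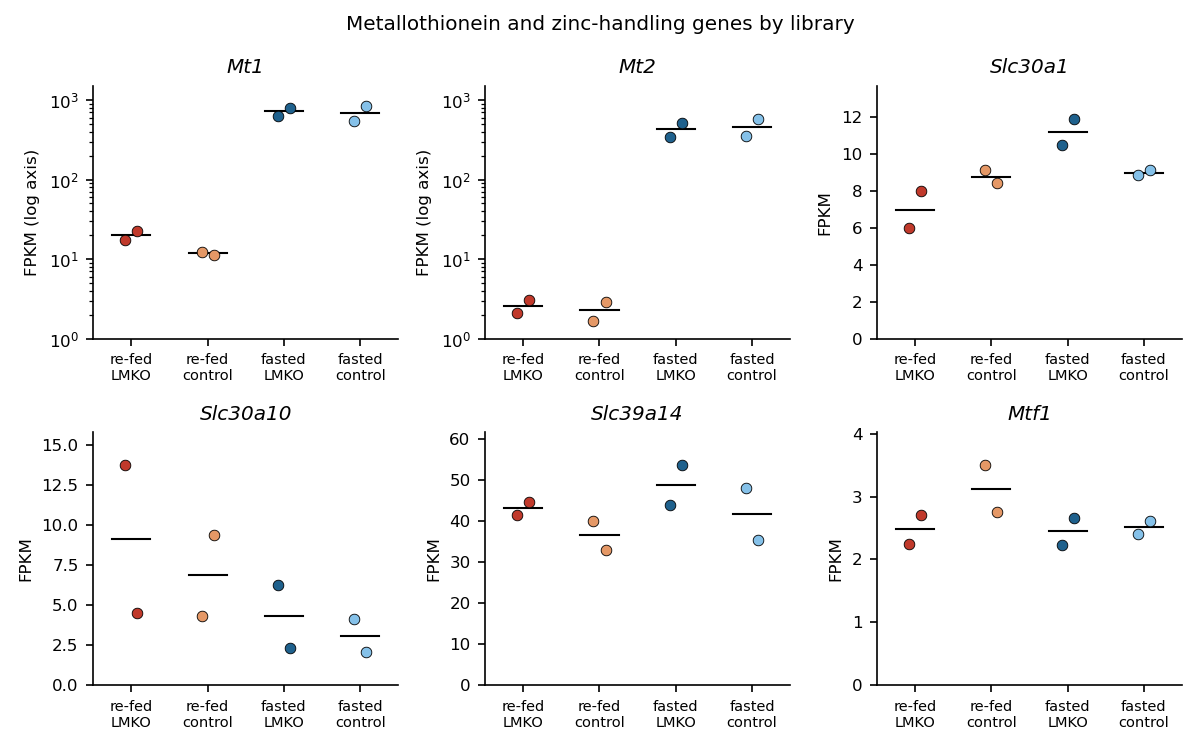
FPKM of each of the 6 genes in every library (points) and the mean of each group (bars, n = 2), with a log axis for Mt1 and Mt2 and linear axes from 0 for the others. Mt1 and Mt2 have 4 fasted libraries at 344 FPKM or more and 4 re-fed libraries at 22.6 FPKM or less, whereas the other 4 genes differ by far less between groups.

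All 6 genes were among the 10865 loci that reached 1 FPKM in at least 2 libraries, and differences over those loci were fitted with limma on log2(FPKM + 1) and Benjamini-Hochberg adjustment over all of those loci. On this scale the change of a weakly expressed gene comes out too small. Mt1 fell by 5.10 on re-feeding in LMKO (log2, SE 0.24, limma adjusted p = 0.000361) and fell by 5.73 in controls (SE 0.24, limma adjusted p = 0.000211). Mt2 fell by 6.89 in LMKO (SE 0.33, limma adjusted p = 0.000361) and fell by 7.12 in controls (SE 0.33, limma adjusted p = 0.000257). By size of the fall, Mt2 was number 2 and Mt1 number 6 of all tested loci in LMKO, and Mt2 was number 3 and Mt1 number 4 in controls. Of the 6 genes, 3 were called lower in LMKO (Mt1, Mt2 and Slc30a1) and 2 in controls (Mt1 and Mt2), and 0 were called higher in either. Over all tested loci 39.5% were called in LMKO, 16.3% lower and 23.2% higher, and 33.2% in controls, 10.5% lower and 22.8% higher. The same 3 genes in LMKO and the same 2 in controls were lower on re-feeding without overlap of the libraries, as were 33.8% and 25% of all tested loci. Mtf1 and Slc30a10 were higher without overlap in controls, as were 43.9% of all tested loci. None of the 6 genes was higher without overlap in LMKO, against 41.5% of all tested loci. The median log2 change of all loci was 0.06 in LMKO and 0.13 in controls, and with median-ratio scaling it was -0.10 and -0.06. That scaling gave 39.5% of the calls as higher in LMKO, where the unscaled values gave 58.7%, and 42% in controls, where they gave 68.5%. Under it the change was -5.30 for Mt1 and -7.05 for Mt2 in LMKO, and -5.95 for Mt1 and -7.32 for Mt2 in controls.

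Mt1 exceeded Mt2 in every library, and by a different factor in the fed and fasted states. The ratio of Mt1 to Mt2 FPKM was 8.21 and 7.38 in re-fed LMKO and 7.40 and 3.87 in re-fed control, against 1.85 and 1.57 in fasted LMKO and 1.55 and 1.46 in fasted control. All 4 re-fed ratios lay above all 4 fasted ratios, with Mt2 near 2 FPKM in the re-fed libraries. The 2 genes are similar in sequence: 348 of 483 aligned bases (72%) of their annotated transcripts, of 549 and 511 bases, were identical. The longest run they shared was 20 bases, and how the authors' quantification split reads between them is uncertain.

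Between genotypes, Mt1 was nearly equal in fasted livers and higher in LMKO than in control in both re-fed libraries, without passing the test. The re-fed difference was 0.71 (log2, SE 0.24, limma adjusted p = 0.367) and the ratio of re-fed means, LMKO over control, was 1.70. The fasted difference was 0.08 (SE 0.24, limma adjusted p = 0.916). Mt2 differed between LMKO and control by 0.14 when re-fed (SE 0.33, limma adjusted p = 0.888) and by -0.09 when fasted (SE 0.33, adjusted p = 0.929). The re-feeding response was not shown to differ between genotypes: the interaction was 0.62 for Mt1 (limma adjusted p = 0.596) and 0.24 for Mt2 (adjusted p = 0.882). None of the 6 genes was called by limma between LMKO and control; at an unadjusted p under 0.05 there was 1 in re-fed livers (Mt1) and 0 in fasted livers or over both states, beside 11.7%, 12.4% and 15.1% of all tested loci. Of all tested loci, 0.101% were called re-fed (0.0276% higher and 0.0736% lower in LMKO), 0.166% fasted (0.0184% higher and 0.147% lower) and 0.313% over both states (0.092% higher and 0.221% lower). In the interaction 0 of the 6 genes and 0.0368% of all loci were called, 0.0184% in each direction, and 1 of the 6 (Slc30a1) had an unadjusted p under 0.05, beside 9.35% of all loci. Without overlap of the libraries, Mt1 and Slc39a14 were higher and Mtf1 and Slc30a1 lower in re-fed LMKO than in re-fed control, as were 25.6% and 19.4% of all tested loci. In fasted livers Slc30a1 was higher in LMKO without overlap, as were 33% of all tested loci, and 0 of the 6 were lower, against 12.8%.

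Transcript length moved with feeding in these libraries, and 1 re-fed library stood apart. Across loci, the deviation of a library's log2(FPKM + 1) from the mean of all libraries had a correlation with log2 transcript length of -0.379 and -0.354 in re-fed LMKO and -0.0189 and -0.334 in re-fed control, against 0.262 and 0.301 in fasted LMKO and 0.277 and 0.244 in fasted control. Re-fed control replicate 1, at -0.0189, lay between the other re-fed libraries and the fasted ones. Among 184 loci with transcripts of 300 to 600 bases, the class of Mt1 and Mt2, the median log2 change on re-feeding was 0.81 in LMKO and 0.65 in controls, and 4.35% and 4.89% of them were called lower. Among loci with transcripts of at least 4800 bases, which include Mtf1, Slc30a1 and Slc30a10, the medians were -0.39 in LMKO and -0.18 in controls. With the length trend of each library removed, the change was -5.95 for Mt1 and -7.76 for Mt2 in LMKO, and -6.36 for Mt1 and -7.77 for Mt2 in controls. The same class of short transcripts had a median of 0.37 for LMKO minus control when re-fed, and Mt1's re-fed difference was 0.36 with the trend removed.

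**Figure D2:**
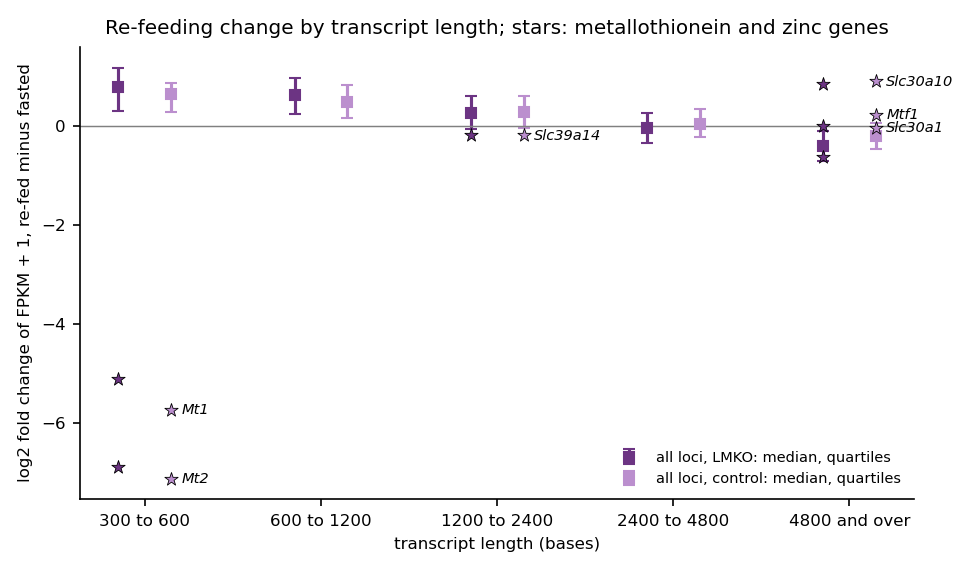
Log2 change of FPKM + 1 from fasted to re-fed liver, by class of transcript length in bases, with the median and quartiles of all tested loci in LMKO (dark squares) and control (light squares) and the 6 genes as stars. Short transcripts have medians above 0 and those of at least 4800 bases medians below 0, and Mt1 and Mt2 lie far below the other loci of their class.

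Slc30a1 (ZnT1, mm9 chr1, 193730660 to 193737126), which exports zinc across the plasma membrane, had 5.98 and 8.01 FPKM in re-fed LMKO and 9.13 and 8.42 FPKM in re-fed control, against 10.5 and 11.9 FPKM in fasted LMKO and 8.86 and 9.14 FPKM in fasted control. The fasted LMKO libraries were the highest of all and the re-fed LMKO libraries the lowest, with the 4 control libraries between them. In LMKO, Slc30a1 fell by 0.62 on re-feeding (log2, SE 0.15, limma adjusted p = 0.0175), and in controls the change was -0.03 (SE 0.15, limma adjusted p = 0.879). The call in LMKO was lost with the length trend removed (-0.34, limma adjusted p = 0.104), without fasted LMKO replicate 2 (-0.54, adjusted p = 0.0909) and without re-fed LMKO replicate 1 (-0.44, adjusted p = 0.0913). Slc30a1 was lower in LMKO than in control without overlap when re-fed (-0.30, limma adjusted p = 0.479) and higher without overlap when fasted (0.29, adjusted p = 0.491). Of all tested loci, 5.61% had this same pair of opposite differences without overlap. The interaction was -0.59 (SE 0.21, limma adjusted p = 0.507) and did not pass.

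Slc30a10 (ZnT10, mm9 chr1, 187278727 to 187292640) varied more between livers of a group than any other of the 6 genes. It had 13.7 and 4.48 FPKM in re-fed LMKO and 4.33 and 9.41 FPKM in re-fed control, against 6.25 and 2.34 FPKM in fasted LMKO and 4.13 and 2.05 FPKM in fasted control. On the log2(FPKM + 1) scale, replicate 1 minus replicate 2 was 1.43 in re-fed LMKO, -0.97 in re-fed control, 1.12 in fasted LMKO and 0.75 in fasted control. The re-fed control libraries lay above the fasted control libraries, and the LMKO libraries overlapped between feeding states. The re-feeding change was 0.87 in LMKO (log2, SE 0.60, limma adjusted p = 0.287) and 0.91 in controls (SE 0.60, adjusted p = 0.279). At this spread neither passed, and 43.9% of all tested loci were higher without overlap in re-fed than in fasted controls.

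Slc39a14 (ZIP14, mm9 chr14, 70703274 to 70751231) was the most abundant of the 6 genes in re-fed liver. It had 41.6 and 44.7 FPKM in re-fed LMKO and 40.0 and 33.1 FPKM in re-fed control, against 43.8 and 53.6 FPKM in fasted LMKO and 48.1 and 35.5 FPKM in fasted control. The groups compared overlapped except that both re-fed LMKO libraries lay above both re-fed control libraries, as 25.6% of all tested loci did. The change on re-feeding was -0.16 in LMKO (log2, SE 0.19, limma adjusted p = 0.512) and -0.18 in controls (SE 0.19, adjusted p = 0.489). LMKO minus control was 0.24 when re-fed (limma adjusted p = 0.640) and 0.23 when fasted (adjusted p = 0.657).

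Mtf1 (mm9 chr4, 124479793 to 124527044) was, by group mean, the least abundant of the 6 genes in fasted liver and stayed within a narrow range. It had 2.25 and 2.72 FPKM in re-fed LMKO and 3.50 and 2.75 FPKM in re-fed control, against 2.24 and 2.66 FPKM in fasted LMKO and 2.40 and 2.62 FPKM in fasted control. The re-fed control libraries were the 2 highest, and the other 6 overlapped. The re-feeding change was 0.01 in LMKO (log2, SE 0.14, limma adjusted p = 0.950) and 0.23 in controls (SE 0.14, adjusted p = 0.254). With the length trend removed it was 0.48 in LMKO (limma adjusted p = 0.0244) and 0.47 in controls (adjusted p = 0.0287), so the call on Mtf1 depends on that step, and with median-ratio scaling the LMKO value was -0.13.

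**Figure D3:**
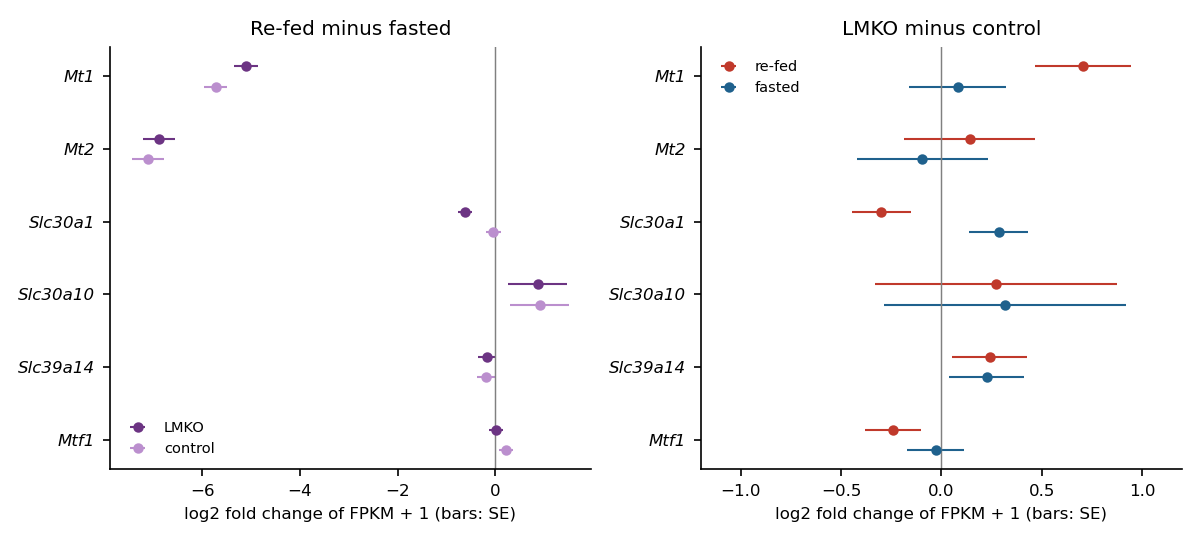
Log2 fold change of FPKM + 1 (points) with its standard error (bars) for the 6 genes: on the left re-fed minus fasted in LMKO and in control, on the right LMKO minus control in re-fed and in fasted liver. Mt1 and Mt2 lie between -7.12 and -5.10 on the left, while every value on the right lies between -0.30 and 0.71.

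Over the 8 libraries, log2(FPKM + 1) of Mt1 and Mt2 had a Pearson correlation of 0.9955, and the other pairs among the 6 genes had correlations between -0.71 and 0.68. These points share the feeding contrast, so the values describe the pattern only. Of 6543 loci with a mean of at least 5 FPKM, the 5 closest to the mean of Mt1 and Mt2 were Calcoco1 (0.9946), Atg14 (0.9935), Etfdh (0.9921), Slc27a2 (0.9912) and Vnn1 (0.9907). Vnn1 averaged 5.53 FPKM in re-fed LMKO and 5.39 FPKM in re-fed control, against 57.8 FPKM in fasted LMKO and 67.5 FPKM in fasted control. The locus closest to Slc30a1 was Cry2, a circadian repressor (0.9781), that closest to Slc30a10 was Leprotl1 (0.9653), and that closest to Slc39a14 was Pccb (0.9226).

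The other zinc transporters are described list by list, and importers were not tested against exporters. Of 13 further Slc39 importers, 10 were tested; 3 rose on re-feeding in LMKO and 4 in controls, 0 fell in either, and the median over the 10 was 0.07 in LMKO and 0.03 in controls, beside 0.06 and 0.13 over all loci. Those shares of called genes stand beside 23.2% of all tested loci called higher in LMKO and 22.8% in controls. Slc39a4, the importer that takes up dietary zinc in the intestine, had 42.6 and 37.8 FPKM in re-fed LMKO and 46.7 and 40.8 FPKM in re-fed control, against 21.9 and 17.4 FPKM in fasted LMKO and 15.9 and 16.9 FPKM in fasted control. All 4 re-fed libraries lay above all 4 fasted ones, and the change was 1.001 in LMKO (log2, SE 0.15, limma adjusted p = 0.00392) and 1.36 in controls (SE 0.15, adjusted p = 0.00235). Slc39a7, which releases zinc from the endoplasmic reticulum and Golgi, rose by 0.81 in LMKO and 0.93 in controls (limma adjusted p = 0.00404 and 0.00379). Slc39a11 rose by 1.18 and 1.36 (limma adjusted p = 0.00239 and 0.00222). Slc39a10 rose by 0.58 in controls (limma adjusted p = 0.0123), or by 0.53 without fasted control replicate 2, and its LMKO change was 0.14 (adjusted p = 0.367). It reached the 1 FPKM limit for testing only in re-fed control (1.09 and 1.16 FPKM). Its means were 0.81 FPKM in re-fed LMKO, 0.64 FPKM in fasted LMKO and 0.42 FPKM in fasted control. Its call therefore rests on the group that let it pass the filter and is only a description. The calls on Slc39a4, Slc39a7 and Slc39a11 passed under every alternative tried in both genotypes. Of 8 further Slc30 exporters, 5 were tested and 0 passed in any comparison in limma, with 1 at an unadjusted p under 0.05 for re-feeding in each genotype (beside 49.7% of all loci in LMKO and 45.6% in controls) and medians of 0.05 in LMKO and 0.30 in controls on re-feeding. That gene was Slc30a6, with a change of 0.38 in LMKO (limma adjusted p = 0.0548) and 0.39 in controls (adjusted p = 0.0582).

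Of 6 other metallothioneins and genes linked to MTF1, Mt4 was listed at 0 in all 8 libraries and Mt3 did not exceed 0.0917 FPKM in any. A listed 0 can be a failed estimate in these files, where Alb also stands at 0, so it is not read as absence. Of the 4 tested, 1 rose on re-feeding in LMKO and 3 in controls, 0 fell, and the medians were 0.34 and 0.90, beside 23.2% and 22.8% of all loci called higher. Selenoh, given in the files as 2700094K13Rik, had 14.3 and 17.3 FPKM in re-fed LMKO and 9.61 and 12.5 FPKM in re-fed control, against 6.27 and 5.19 FPKM in fasted LMKO and 6.17 and 3.19 FPKM in fasted control. Its change was 1.32 in LMKO (limma adjusted p = 0.0103) and 1.13 in controls (adjusted p = 0.0209), and neither passed with the length trend removed (adjusted p = 0.0928 and 0.110). Gclc, a subunit of the enzyme that limits glutathione synthesis, rose by 1.16 in controls (limma adjusted p = 0.00586), and its change in LMKO was 0.18 (adjusted p = 0.454). Its mean was 58.5 FPKM in fasted LMKO and 24.3 FPKM in fasted control, and 66.9 and 55.7 FPKM when re-fed. The interaction for Gclc was -0.99 (limma adjusted p = 0.481), so its response is not shown to differ between genotypes. Csrp1 rose by 0.67 in controls (limma adjusted p = 0.0247; 0.130 with the length trend removed) and changed by 0.51 in LMKO (adjusted p = 0.0501).

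Among genes of copper, iron and manganese handling, 17 were tested; 6 rose and 2 fell on re-feeding in LMKO, 7 rose and 0 fell in controls, and the medians were 0.44 and 0.73. Of all tested loci, 23.2% were called higher and 16.3% lower in LMKO, and 22.8% higher and 10.5% lower in controls. The cytosolic copper and zinc superoxide dismutase Sod1 rose by 1.01 in LMKO and 0.74 in controls (limma adjusted p = 0.00559 and 0.0187), and Commd1, which takes part in copper export, by 1.08 and 1.04 (adjusted p = 0.00173 and 0.0024). The ferritin subunits Fth1 and Ftl1 rose by 0.76 and 1.25 in LMKO (limma adjusted p = 0.0194 and 0.0091) and by 0.59 and 0.82 in controls (adjusted p = 0.0487 and 0.0423). The copper chaperone Atox1 rose by 1.50 and Ccs by 0.44 in LMKO (limma adjusted p = 0.00643 and 0.037). The copper transporter Atp7b fell by 0.75 and ceruloplasmin (Cp) by 0.67 in LMKO (limma adjusted p = 0.02 and 0.00834). In controls the copper importer Slc31a1 rose by 0.77, the metal importer Slc11a2 by 0.73 and transferrin (Trf) by 1.12 (limma adjusted p = 0.0143, 0.0165 and 0.0128). The interaction called 0 of the 17 genes, so a call in only 1 genotype is not shown to be a difference between genotypes. Fasted means were 53.8 FPKM in LMKO and 38.8 FPKM in control for Slc31a1, 10.3 and 6.81 FPKM for Slc11a2, and 6901 and 3619 FPKM for Trf. Of the 15 calls on re-feeding only the 2 on Commd1 passed under every alternative tried. With the length trend removed, Sod1, Fth1 and Ftl1 did not pass in either genotype, nor Atox1, Atp7b and Ccs in LMKO (limma adjusted p between 0.0809 and 0.498), and Ccs turned to -0.11.

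Genes known to respond to the glucocorticoid receptor are given beside the metallothioneins because both are induced by glucocorticoids in liver. Of 10 tested, 3 fell and 2 rose on re-feeding in LMKO, 4 fell and 0 rose in controls, and the medians were -0.46 and -1.10. In either direction that is 5 of 10 in LMKO and 4 of 10 in controls, beside 39.5% and 33.2% of all tested loci. By direction, 16.3% of all tested loci were called lower and 23.2% higher in LMKO, and 10.5% lower and 22.8% higher in controls. Fkbp5, a co-chaperone of steroid receptors, had 7.20 and 7.58 FPKM in re-fed LMKO and 10.9 and 6.10 FPKM in re-fed control, against 48.0 and 69.5 FPKM in fasted LMKO and 56.8 and 119.9 FPKM in fasted control. Like the metallothioneins it was lower in every re-fed than in every fasted library, with a log2 change of -2.81 in LMKO and -3.19 in controls (limma adjusted p = 0.00331 and 0.0033). The transcription factor Klf9 fell by 1.64 in LMKO and 1.78 in controls (limma adjusted p = 0.00235 and 0.00252), Zbtb16 by 1.56 and 2.75 (adjusted p = 0.0382 and 0.00787), and Cebpd by 1.57 in controls (adjusted p = 0.00685). Tat, a glucocorticoid-induced enzyme of tyrosine breakdown, rose in LMKO, with 780 and 913 FPKM in re-fed LMKO against 452 and 393 FPKM in fasted LMKO (limma adjusted p = 0.0266), and Tsc22d3 rose there by 0.96 (adjusted p = 0.0456). The calls on Fkbp5 and Klf9 in both genotypes, and on Zbtb16 and Cebpd in controls, passed under every alternative tried, and those on Zbtb16, Tat and Tsc22d3 in LMKO did not pass with the length trend removed (limma adjusted p = 0.0786, 0.0607 and 0.155). In fasted livers all 10 genes had lower values in LMKO than in control, with a median of -0.72 beside 0.08 over all loci and 0 called. In re-fed livers all 10 also had lower values in LMKO, with a median of -0.14 beside 0.01 over all loci and 0 called. The interaction called 0 of the 10. All 10 were measured in the same libraries, so they are not 10 separate observations, and the list as a set was not tested.

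Acute phase genes driven by interleukin 6 and STAT3 and genes driven by NRF2 were counted because these pathways are other known inducers of metallothioneins. Of 15 acute phase genes, 2 rose on re-feeding in LMKO and 1 in controls, 0 fell, and the medians were -0.04 and 0.05, beside 39.5% and 33.2% of all tested loci called in either direction. By direction these were 23.2% higher and 16.3% lower in LMKO, and 22.8% higher and 10.5% lower in controls. Orm1 rose by 1.59 in LMKO and 1.07 in controls (limma adjusted p = 0.00802 and 0.0337) and Orm2 by 1.36 in LMKO (adjusted p = 0.0295), and none of these passed with the length trend removed (adjusted p = 0.0845, 0.269 and 0.274). Of 7 genes listed for NRF2, 6 were tested and 0 passed on re-feeding in limma in either genotype, with medians of 0.32 in LMKO and 0.24 in controls. At an unadjusted p under 0.05 in limma there were 0 in LMKO and 1 in controls, beside 49.7% and 45.6% of all loci. Gclc, Fth1 and Ftl1 were counted in other lists above, so this count covers only the genes listed for NRF2. Between LMKO and control, and in the interaction, 0 of the 67 genes tested from these lists passed in limma, and an unadjusted p under 0.05 was reached by 8 of them re-fed, 18 fasted, 16 over both states and 11 in the interaction. These are 11.9%, 26.9%, 23.9% and 16.4% of the 67, beside 11.7%, 12.4%, 15.1% and 9.35% of all tested loci.

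**Figure D4:**
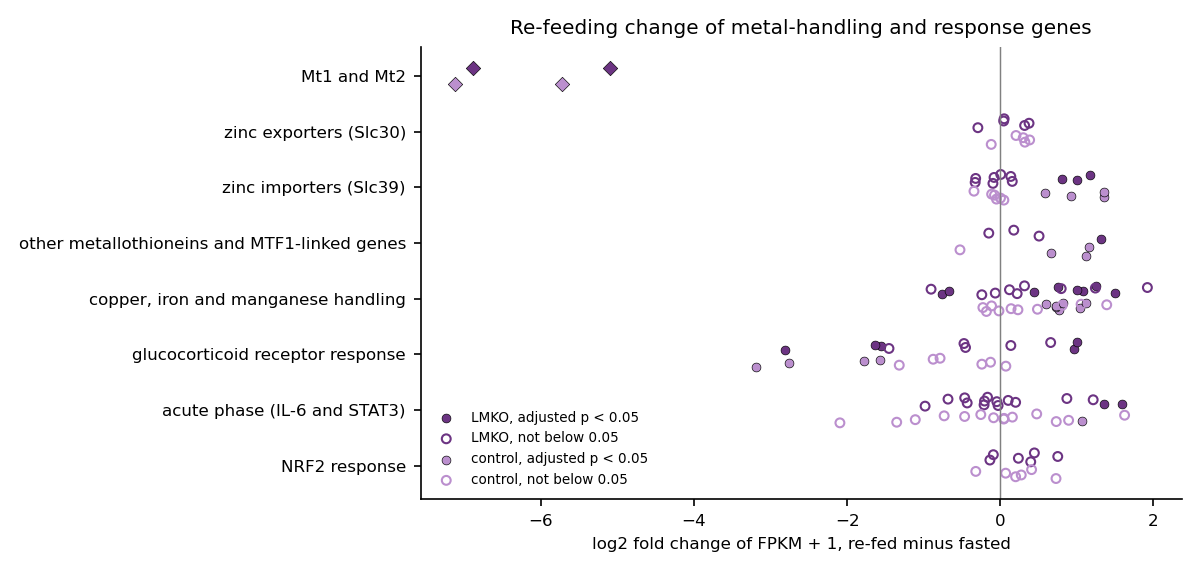
Log2 change of FPKM + 1, re-fed minus fasted, for Mt1 and Mt2 (diamonds) and each tested gene of the other lists (circles), in LMKO (dark) and control (light); filled circles had a limma adjusted p under 0.05. The metallothioneins lie at -5.10 or below, the glucocorticoid receptor list reaches -3.19, and the called zinc importers lie at 0.58 or above. The lowest of these importers, Slc39a10, was near the 1 FPKM limit for testing.

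Features of the livers and libraries are given next, and only some of them separated the feeding states. FPKM summed to 511926 to 597650 in re-fed and 453652 to 468218 in fasted libraries, and the number of fragments is unknown. The deposited names carry 1 leading number in all fasted and another in all re-fed libraries; what it marks is not known from the sources used here, and if it marks a batch, the batch and feeding cannot be told apart. Med23 had 1.61 and 1.74 FPKM in re-fed LMKO and 2.86 and 2.33 FPKM in re-fed control, and 2.35 and 2.18 FPKM in fasted LMKO against 2.86 and 2.93 FPKM in fasted control, lower in LMKO without overlap in each state (limma adjusted p = 0.315 and 0.438). The liver label was checked against 8 hepatocyte genes such as Apoa1 and Ttr, which summed to between 20610 and 30418 FPKM per library, while albumin (Alb) stood at 0 in every library. Kupffer cell markers summed to 30.8 and 47.3 FPKM in re-fed LMKO and 57.0 and 73.6 FPKM in re-fed control, against 80.9 and 106 FPKM in fasted LMKO and 73.6 and 83.4 FPKM in fasted control. On re-feeding, 5 of the 6 Kupffer and 5 of the 6 sinusoidal endothelial markers were called lower in LMKO, and 1 and 4 of them in controls. Of the 8 hepatocyte genes, 3 were called lower and 1 higher in LMKO, and 2 lower and 2 higher in controls. The marker counts stand beside 16.3% of all tested loci called lower and 23.2% higher in LMKO, and 10.5% lower and 22.8% higher in controls. Sinusoidal endothelial markers summed to 49.8 and 37.8 FPKM in re-fed LMKO and 44.3 and 48.1 FPKM in re-fed control, against 82.2 and 81.8 FPKM in fasted LMKO and 65.2 and 55.0 FPKM in fasted control. Stellate cell markers summed to 40.4 and 55.0 FPKM in re-fed LMKO and 54.7 and 69.7 FPKM in re-fed control, against 79.4 and 87.1 FPKM in fasted LMKO and 84.4 and 77.0 FPKM in fasted control, and 2 of 6 fell in LMKO and 1 in controls. Cholangiocyte markers summed to 24.2 and 26.3 FPKM in re-fed LMKO and 28.5 and 30.1 FPKM in re-fed control, against 9.43 and 8.12 FPKM in fasted LMKO and 12.0 and 8.40 FPKM in fasted control, and 1 of the 3 tested rose in each genotype. Erythroid markers summed to 95.4 to 155 FPKM in re-fed and 41.9 to 98.2 FPKM in fasted libraries, with 0 called. Rn45s, a ribosomal RNA precursor, ranged over 802 to 3448 FPKM in re-fed and 185 to 1324 FPKM in fasted libraries. None of these markers was at 0 in all libraries, their part in the values of the 6 genes was not tested, and in bulk liver fewer cells of a type and less RNA per cell cannot be told apart.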

How the data were processed

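The data are liver RNA sequencing libraries from 8 mice. The authors deposited, for each library, an FPKM value for each of 23699 loci; per the submitters' processing notes they used TopHat 1.4.1, Cufflinks 2.0.2, Cuffdiff 2.0.2 and the mouse build mm9. Other settings, any scaling between libraries and the fragment counts are not given in the sources used here, so depth is unknown. Low FPKM values stood in ratios from which a relative depth of 0.956 to 1.11 against fasted control replicate 1 was read, with 19.6% to 22.9% of low loci at the ratio, so whole reads were not recovered. Deposited starts count from 0 and are printed 1 higher: end minus start equalled a RefSeq gene length for 8690 of 20477 symbols, and 1 more did so for 528.

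Groups were taken from the sample labels. One limma 3.58.1 model (R 4.3.3, eBayes with a mean trend) of log2(FPKM + 1) held the 4 group means over the 10865 loci that reached 1 FPKM in at least 2 libraries. It had 4 residual and 2.74 prior degrees of freedom. P-values are two-sided, adjusted by Benjamini-Hochberg over all loci within a comparison, and a locus was called at an adjusted p under 0.05. The fit was also run on simulated data with independent noise and known changes. Those data held no trend with transcript length, so that run does not show how the fit behaves under one. The comparisons were re-fed against fasted in each genotype, LMKO against control in each feeding state and over both, and their interaction.

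The 6 genes and the lists were chosen with earlier results of these data known; the lists were written from general knowledge. Genes named are the 6 genes in every comparison, Med23, called list members, otherwise up to 4 list members with the smallest p, and the loci closest in pattern by Pearson correlation; not all of these are printed, and exceptions are stated. Alternatives were other pseudocounts, filters, scalings and eBayes settings, removal of each library's trend with transcript length, a replicate block, only the libraries of a comparison, and leaving out each library. Transcript lengths came from GENCODE vM21 and promoter sequences from RefSeq (GRCm38.p6), used only for those.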

Additional observations from a re-analysis of the deposited data

Results flagged for a closer look

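Slc30a1, Slc39a10 and Atp7b were lower in LMKO than in control without overlap when re-fed and higher without overlap when fasted. Of all tested loci, 5.61% had this same pair of opposite differences. Tat was higher without overlap in re-fed than in fasted LMKO and lower without overlap in re-fed than in fasted controls. The share of all loci with the pattern of Tat was not counted. The genes were picked by these patterns, which are therefore no evidence of a difference. The difference between the responses was tested by the interaction term in limma, and it did not pass in any of the 4 genes. Slc30a1 had a log2 interaction of -0.59 (limma adjusted p = 0.507) and Slc39a10 one of -0.44 (adjusted p = 0.507). Slc39a10 reached the 1 FPKM limit for testing only in re-fed control. The copper transporter Atp7b had an interaction of -0.74 (limma adjusted p = 0.507). Tat had an interaction of 1.79 (limma adjusted p = 0.481), with 780 and 913 FPKM in re-fed LMKO and 804 and 899 FPKM in re-fed control, against 452 and 393 FPKM in fasted LMKO and 1094 and 1966 FPKM in fasted control.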

How the results depend on the processing

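The falls of Mt1 and Mt2 on re-feeding passed in 19 of 19 alternatives in each genotype, at -5.95 to -4.92 (LMKO) and -6.36 to -5.42 (control) for Mt1 and -7.76 to -6.60 (LMKO) and -7.77 to -6.76 (control) for Mt2, with limma adjusted p up to 0.00585. No alternative called any of the 6 genes between genotypes or in the interaction. The fall of Slc30a1 in LMKO passed in 16 of 19. Each group has 2 libraries, and with 1 left out the lone library is assumed to vary like the others.

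The number of loci called without the low-value filter was 11 for LMKO minus control fasted and 7 for the interaction; with only the libraries of the comparison it was 19 for LMKO minus control re-fed and 2219 for re-feeding in controls. Leaving out 1 library gave 11 to 56 calls for LMKO minus control fasted, 3 to 14 re-fed, 15 to 55 over both states, 2202 to 4257 for re-feeding in LMKO, 1562 to 3166 in controls and 1 to 15 for the interaction.

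Over the 10865 tested loci as a whole, same-numbered libraries of different groups did not deviate together (correlations of -0.0835 to -0.00835). Such a correlation would miss a pairing that moved only few genes, so whether the replicate numbers pair samples was not settled. With a replicate block there were 13 calls for LMKO minus control fasted, 10 re-fed, 18 over both states, 3804 for re-feeding in LMKO, 2967 in controls and 4 for the interaction, and no call on the 6 genes changed.

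Values that did not pass and changed sign were, for LMKO minus control, Mt1 fasted with median-ratio scaling (-0.0073) and the length trend removed (-0.046), Mt2 re-fed with the trend removed (-0.22), Mt2 over both states with median-ratio scaling (-0.047) and the trend removed (-0.22), and Slc30a1 over both states with the trend removed (0.0018). On re-feeding they were Mtf1 in LMKO with median-ratio scaling (-0.13) and Slc30a1 in controls with the trend removed (0.065); Ccs in LMKO, called higher, was -0.037 with quantile normalization and -0.11 with the trend removed. In the interaction they were Mtf1 with the trend removed (0.0058) and Slc30a10 with quantile normalization (0.028) and the trend removed (0.15). The cause was not tested.

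Leaving out 1 library gave, for LMKO minus control fasted, -0.23 to 0.39 for Mt1, -0.45 to 0.26 for Mt2, -0.12 to 0.060 for Mtf1 and -0.24 to 0.87 for Slc30a10. Re-fed it gave -0.14 to 0.42 for Mt2 and -0.44 to 0.98 for Slc30a10, and over both states -0.16 to 0.20 for Mt2, -0.10 to 0.084 for Slc30a1 and -0.064 to 0.65 for Slc30a10. For re-feeding it gave -0.083 to 0.11 for Mtf1 in LMKO, and -0.087 to 0.018 for Slc30a1 and -0.39 to 0.035 for Slc39a14 in controls. For the interaction it gave -0.12 to 0.59 for Mt2, -0.76 to 0.67 for Slc30a10 and -0.20 to 0.23 for Slc39a14.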

Other observations

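The fasted livers of a group were unequal in the acute phase genes Saa1 and Saa2, which were chosen here after their values were seen. Saa1 had 29.6 and 396 FPKM in fasted LMKO and 89.2 and 776 FPKM in fasted control, and Saa2 had 5.98 and 93.0 FPKM in fasted LMKO and 21.9 and 351 FPKM in fasted control, each as replicates 1 and 2. The fasted libraries with the higher Saa1 and Saa2, replicate 2 of both genotypes, were also those with the higher Mt1 (802 FPKM in LMKO and 837 FPKM in control) and Mt2 (511 and 574 FPKM). Other genes of the acute phase list were split in fasted control. There Fga had 1262 and 939 FPKM in replicates 1 and 2, and Lcn2 had 15.4 and 26.2 FPKM. Nor was a higher replicate 2 limited to that list. Fkbp5, of the glucocorticoid receptor list, had 56.8 and 119.9 FPKM in fasted control and 48.0 and 69.5 FPKM in fasted LMKO. In re-fed livers Saa1 had 70.5 and 42.6 FPKM in LMKO and 69.7 and 53.4 FPKM in control, and the higher Saa1 went with the lower Mt2 in both genotypes and with the lower Mt1 in LMKO (17.3 against 22.6 FPKM) but the higher Mt1 in control (12.2 against 11.3 FPKM). Saa1 did not pass on re-feeding in either genotype (limma adjusted p = 0.586 in LMKO and 0.264 in controls). The part of these differences between livers in the metallothionein values was not tested.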
